A study of Mus musculus with 6 samples.

Results

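The 10 genes described here, Adipoq, Plin1, Plin4, Cidec, Lep, Retn, Cfd, Pparg, Car3 and Lipe, are genes used as markers of white adipocytes. They were given by name and matched to the gene symbols of a table of 55335 genes, where each had exactly 1 row. All 10 passed the filter on low counts, as did 16612 genes in all. The libraries were made from aorta of wild-type C57BL/6 mice, male according to the methods of the study, with no treatment or transgene named. The young group comprised 3 libraries from mice aged 6 weeks and the aged group 3 libraries from mice aged 6 months. The methods state that the fat surrounding the vessel was dissected under a stereomicroscope, and they do not give a measure of how much adipose tissue stayed with each vessel.

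White adipocytes store triglyceride in a single large lipid droplet coated by perilipins, release fatty acids from it through lipases, and secrete hormones called adipokines. The nuclear receptor PPARG directs their differentiation and drives many of the genes they express. The fat around the mouse aorta ranges from white to brown along the vessel, and brown adipocytes, which burn lipid to produce heat through the uncoupling protein UCP1, express most of these 10 genes as well. Leptin is the adipokine most closely tied to white fat.

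Total counts per library lay between 31049632 and 45832185. Smooth muscle markers were high in every library, with the 6 genes of that list summing to between 27960 and 40140 CPM (counts scaled to library size with TMM factors), so the tissue matched its label. Xist, the RNA that silences an X chromosome in female cells, reached 305.6 CPM in the library labelled young replicate 1 and at most 0.636 CPM in the others, and Ddx3y, encoded on the Y chromosome, was at 1.09 CPM there and at 44.8 CPM or above elsewhere. High Xist with low Ddx3y is the pattern of female tissue, whereas the methods name only male mice. The 6 cardiac muscle markers summed to 325 CPM in young replicate 1 and to between 44.9 and 62.1 CPM in the others. Except where it is left out, that library is part of the young group in all age comparisons. Genes of the mitochondrial genome took 14.9% to 21.2% of the counts in young and 23.1% to 30.4% in aged libraries. The order of levels and the age differences of Retn and Cfd, which were highest in young replicate 1, are therefore given with and without it.

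The label of white adipocyte was then set against brown markers. On the FPKM scale of the authors, which corrects for gene length, Ucp1 had a median of 61.1 over the 6 libraries and lay between 25.3 and 744. Lep had a median of 0.309 FPKM and did not exceed 1.04 FPKM in any library. Thus Ucp1 was at a higher level per length than Lep in 6 of 6 libraries, and the 10 genes are called adipocyte genes here, since these libraries do not assign them to white rather than brown fat. Another brown marker, Cidea, ranged from 17.6 to 311 CPM, whereas Zic1, a transcription factor of brown precursors named here after its values were seen, had 0 counts in 3 libraries and reached 1.41 CPM in aged replicate 2. In bulk tissue, fewer adipocytes and less RNA per adipocyte cannot be told apart.

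By median FPKM over the 6 libraries, the order of levels was Cfd (76.6), Plin4 (75.4), Car3 (45.5), Adipoq (20.2), Cidec (10), Lipe (5.35), Plin1 (4.06), Pparg (3.74), Retn (3.72) and Lep (0.309). The ranges over libraries overlapped between all neighbours in this order except the last pair, as the lowest Retn value was 2.45 FPKM. Without young replicate 1 the median of Plin4 (85.2 FPKM) was above that of Cfd (61.5 FPKM), and the median of Retn (2.57 FPKM) was above that of Pparg (2.19 FPKM), while the other genes kept their places. Together, the 10 genes took between 0.0526% and 0.157% of the counts of a library.

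Promoters are shown of genes that shared an order of libraries at the top and of genes that departed. The 150 bases before a RefSeq transcript start (GRCm38.p6) are printed for 7 genes. RefSeq promoters were matched for 9 of the 10 genes, with 13 starts in all, and Car3 was not matched. Pparg had several starts, of which 1 is printed. That window lacks AGGTCA, which the windows of its other starts hold. Capitals mark, on either strand, the CCAAT box, the TTGCNNAA pattern of C/EBP sites, the nuclear receptor core motif AGGTCA and the TATA box as TATAAA, and no marked motifs overlap. Adipoq, Plin1 and Pparg shared the order of their highest libraries. From the mean of the other 9 genes, Plin1 lay farther (0.762 log2 units) than Adipoq (0.313) and Pparg (0.258). Plin4 varied least, and Lep, Retn and Cfd departed most from the mean of the other genes. The windows are chr16:23146386-23146535 (plus strand), chr7:79732777-79732926 (minus strand), chr17:56109783-56109932 (minus strand), chr6:115421916-115422065 (plus strand), chr6:29060071-29060220 (plus strand), chr8:3655620-3655769 (plus strand) and chr10:79890703-79890852 (plus strand).
Adipoq: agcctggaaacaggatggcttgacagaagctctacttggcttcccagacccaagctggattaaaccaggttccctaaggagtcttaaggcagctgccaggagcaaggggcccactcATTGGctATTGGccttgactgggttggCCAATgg
Plin1: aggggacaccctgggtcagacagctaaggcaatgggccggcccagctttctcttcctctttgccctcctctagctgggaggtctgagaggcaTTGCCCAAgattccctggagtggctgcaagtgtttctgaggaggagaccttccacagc
Plin4: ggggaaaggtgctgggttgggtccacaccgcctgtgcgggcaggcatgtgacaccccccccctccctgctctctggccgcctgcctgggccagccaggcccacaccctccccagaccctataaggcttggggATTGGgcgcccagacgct
Pparg: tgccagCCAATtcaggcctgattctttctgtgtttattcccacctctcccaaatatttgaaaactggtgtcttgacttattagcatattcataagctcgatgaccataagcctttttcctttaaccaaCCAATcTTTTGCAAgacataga
Lep: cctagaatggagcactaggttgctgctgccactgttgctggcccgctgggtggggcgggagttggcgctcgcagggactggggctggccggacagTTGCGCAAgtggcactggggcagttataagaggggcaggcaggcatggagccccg
Retn: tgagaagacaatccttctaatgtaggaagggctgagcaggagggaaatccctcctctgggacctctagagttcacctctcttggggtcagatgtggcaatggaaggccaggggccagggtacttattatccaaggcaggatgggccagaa
Cfd: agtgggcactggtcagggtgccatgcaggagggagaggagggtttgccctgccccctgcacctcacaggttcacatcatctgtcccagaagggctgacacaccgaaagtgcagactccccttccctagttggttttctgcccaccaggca

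Over the 250 bases before a start, TTGCNNAA was found in 4 of the 13 adipocyte gene promoters (Plin1, Lep, 1 of Cidec and 1 of Pparg) and in 9.56% of all 32851 promoters. CCAAT was found in 4 of 13 (Adipoq, Plin4 and 2 of Pparg) against 33.8%, AGGTCA in 2 of 13 (2 of the 3 Pparg starts) against 14%, and TATAAA in 1 of 13 against 12.4%. A pair of AGGTCA copies on 1 strand with 1 base between them, the layout that PPARG and its partner RXR prefer, was found in 0 of 13 and in 0.0335% of all promoters. The printed windows of Retn and Cfd hold none of the marked motifs. These matches describe letters in a window and say nothing of binding.

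Of the lipid droplet coat genes, Plin1 encodes perilipin 1, the main gatekeeper of lipolysis on the adipocyte droplet, and lies on chromosome 7 from 79720218 to 79732903 of GRCm38 (GENCODE M21). It was at 25.7, 73.0 and 13.5 CPM in young replicates 1, 2 and 3 and at 7.31, 129 and 12.5 CPM in aged replicates 1, 2 and 3. Replicate 2 was the highest library in each group, and the groups overlapped. Cidec, which promotes the growth of lipid droplets, was at 21.4, 59.7 and 10.7 CPM in young and 9.78, 92.5 and 20.8 CPM in aged libraries, again with replicate 2 highest in both. Plin4, a perilipin that coats small nascent droplets and is also made in muscle, was at 439, 586 and 542 CPM in young and 309, 901 and 449 CPM in aged libraries. It was the steadiest of the 10 genes, with a 2.92-fold span over the 6 libraries against 17.6-fold for Plin1.

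Lipe encodes hormone-sensitive lipase, which cuts fatty acids from diacylglycerol during lipolysis. It was at 45.1, 86.4 and 20.2 CPM in young and 19.8, 210 and 23.5 CPM in aged libraries. Aged replicate 2 exceeded each other library by more than the whole range of the remaining 5. Pparg, the adipogenic receptor on chromosome 6 from 115360951 to 115490399, was at 16.5, 23.0 and 5.42 CPM in young and 7.31, 38.8 and 8.07 CPM in aged libraries. It followed the same order at the top, with aged replicate 2 first, young replicate 2 next and young replicate 1 after it, as did Adipoq, Plin1, Cidec and Lipe.

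Among the adipokines, Adipoq encodes adiponectin, an insulin-sensitizing hormone, on chromosome 16 from 23146536 to 23158028. It was at 38.7, 87.1 and 17.8 CPM in young and 13.5, 94.3 and 23.5 CPM in aged libraries, so its highest libraries in both groups reached nearly the same level. Lep, which encodes the satiety hormone leptin, had 83, 125 and 16 counts in young and 6, 109 and 5 counts in aged libraries. These correspond to 1.71, 3.59 and 0.466 CPM in young and 0.181, 2.89 and 0.177 CPM in aged libraries. The exact Poisson intervals (95%, counting error only) of 0.0663 to 0.393 CPM in aged replicate 1 and 0.0575 to 0.413 CPM in aged replicate 3 overlap that of young replicate 3, which ran from 0.266 to 0.757 CPM.

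Retn and Cfd departed from this pattern. Retn, encoding resistin, an adipokine linked to insulin resistance in mice, was at 23.2, 4.17 and 3.90 CPM in young and 9.42, 8.98 and 5.03 CPM in aged libraries. Cfd, encoding adipsin, the serine protease that starts the alternative complement pathway, was at 185, 86.2 and 34.99 CPM in young and 66.3, 55.5 and 118 CPM in aged libraries. Both were highest in young replicate 1, the library with high Xist and cardiac markers, and aged replicate 2 was not the highest aged library for either gene. Whether the features of that library have a part in the Retn and Cfd levels was not tested.

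Car3, a carbonic anhydrase of adipocytes, liver and slow skeletal muscle, was at 144, 429 and 87.7 CPM in young and 116, 144 and 174 CPM in aged libraries. Young replicate 2 stood apart, and the 3 aged libraries were close together. The 7 skeletal muscle markers summed to 8.62 CPM in young replicate 2, to 30.2 CPM in young replicate 1 and to between 9.93 and 17.7 CPM in the other 4 libraries. In that list edgeR and DESeq2 called 0 of the 6 tested genes. The slow muscle myosin Myh7 was at 7.64 CPM in young replicate 1, the library with the highest cardiac marker sum. It lay between 0.301 and 1.01 CPM in the others. The part of muscle in the Car3 levels was not tested.

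**Figure D1:**
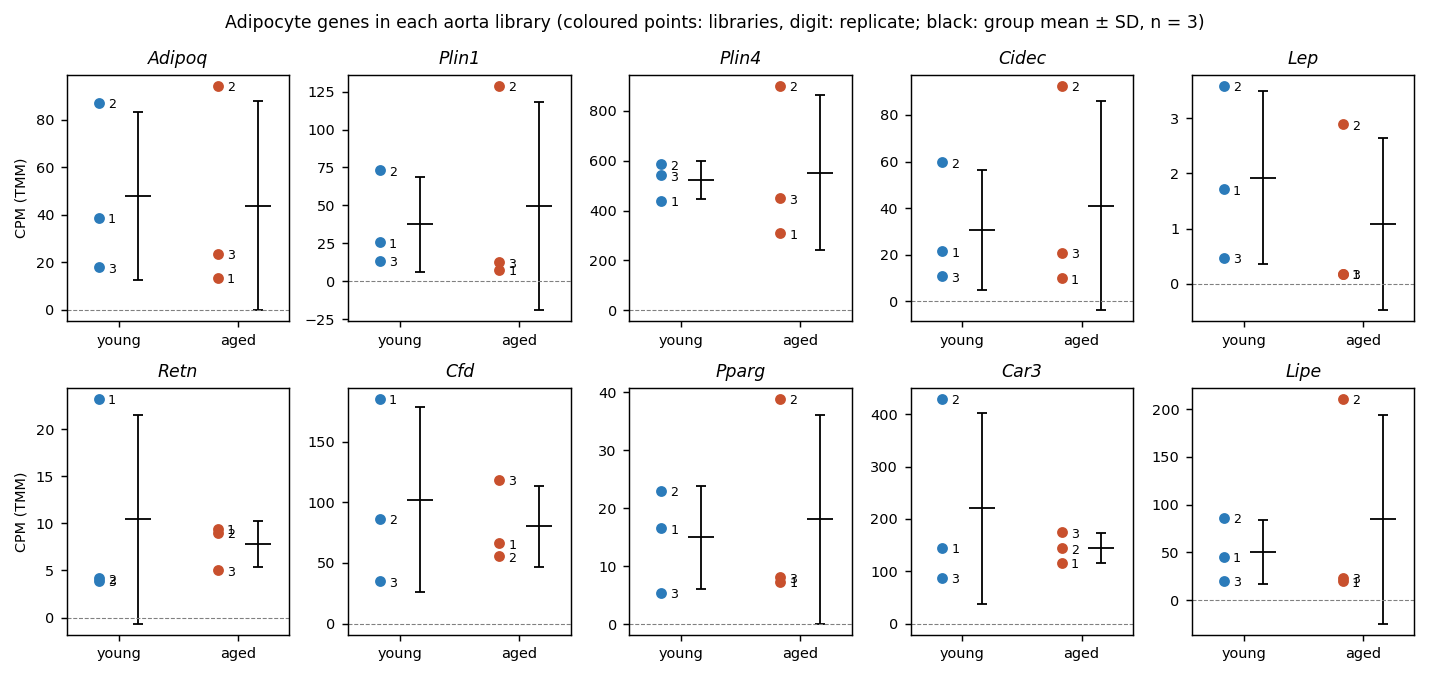
CPM (TMM-scaled) of each of the 10 adipocyte genes in every library, with young in blue, aged in orange, digits for replicates, and the group mean ± SD (n = 3) in black. Replicate 2 is the highest point in both groups for Adipoq, Plin1, Plin4, Cidec, Lep, Pparg and Lipe, and young replicate 1 is the highest for Retn and Cfd.

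The spread between libraries of 1 age was large for these genes. The SD of log2 CPM within groups, pooled over both ages, had a median of 1.26 over the 10 genes. The same median was 0.35 over all 16612 tested genes and 0.25 over the 9153 that averaged 10 CPM or more. Lep (1.87) and Plin1 (1.78) had the widest within-group SD on this log2 scale and Plin4 (0.575) the narrowest. Aged replicate 2 held the highest value for 6 genes (Adipoq, Plin1, Plin4, Cidec, Pparg and Lipe), and aged replicate 1 the lowest for 5. Young replicate 2 was among the top pair of libraries for 8 of the 10 genes.

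To compare the ages, aged was set against young aorta with edgeR's quasi-likelihood test across all 16612 genes. None of the 10 adipocyte genes was called at an adjusted p below 0.05, where 0% of all tested genes were called (0 of 16612). At an unadjusted p below 0.05 the share was 10.4% of all genes (1723 genes) and 0 of the 10 adipocyte genes. DESeq2 also called 0 of the 10, with a lowest adjusted p of 0.728 among them, while it called 2.0% of the 15335 genes to which it gave an adjusted p. The young and aged values overlapped for 10 of 10 adipocyte genes, whereas 16.5% of all tested genes had groups that did not overlap. Of the 10, 5 had a positive and 5 a negative log2 fold change, with a median of -0.022 beside 0.020 over all tested genes.

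The intervals of these differences were wide. For Plin1, 37.4 ± 31.5 CPM (SD, n = 3) in young and 49.5 ± 68.8 CPM (SD, n = 3) in aged aorta gave a log2 fold change of 0.41 (standard error 1.09, edgeR adjusted p = 0.910), with a 95% interval from -2.15 to 2.96. The Adipoq difference was smaller, at -0.13 with an interval from -2.0 to 1.75 on the log2 scale (edgeR adjusted p = 0.965). For Lep the log2 fold change was -0.81 with an interval from -3.56 to 1.94 (edgeR adjusted p = 0.822). Such intervals include large changes in either direction, and the data do not show that the ages were alike. Plin4 had the tightest interval, from -0.80 to 0.97 around a log2 fold change of 0.082, with 522 ± 75.6 CPM in young and 553 ± 310 CPM in aged aorta (SD, n = 3 each). Car3 had the lowest p of the 10, with a log2 fold change of -0.61, an interval from -1.88 to 0.66 and an edgeR adjusted p of 0.705. The remaining log2 fold changes were 0.43 for Cidec, -0.42 for Retn, -0.35 for Cfd, 0.27 for Pparg and 0.74 for Lipe, with edgeR adjusted p between 0.800 and 0.914.

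Single libraries decided the sign for all 10 genes, although for Lep only just. Lep was at 0.010 (standard error 1.33) without young replicate 2 and stayed negative with any other library left out. Without aged replicate 2, each of the 10 log2 fold changes was negative, with a median of -0.98, and Lep (-3.40) and Plin1 (-1.92) had the lowest values. In that fit edgeR called 0 of the 10 (lowest adjusted p = 0.239) and 0.642% of all 17147 genes tested (110 genes). At an unadjusted p below 0.05 were 2 of the 10, Lep and Plin1, and 13.8% of all genes (2359 genes). Without young replicate 2, by contrast, 8 of the 10 were positive, with Lipe at 1.39, Cidec at 1.37 and Plin1 at 1.36, and Car3 moved from -0.61 to 0.33. Without young replicate 1, Retn moved from -0.42 to 0.96 and Cfd from -0.35 to 0.41, with edgeR adjusted p of 0.415 and 0.755. Pparg was at -0.11 without young replicate 3, and Adipoq was at 0.30 without aged replicate 1 and at 0.17 without aged replicate 3.

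**Figure D2:**
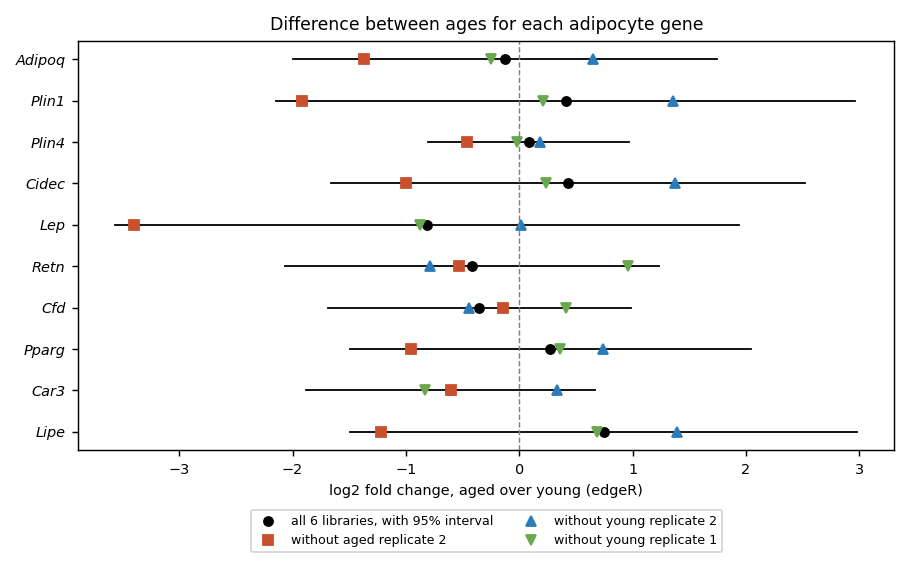
Log2 fold change of aged over young aorta for each adipocyte gene from edgeR, with all 6 libraries (black points with 95% intervals) and after leaving out aged replicate 2, young replicate 2 or young replicate 1 (coloured markers). Every interval includes 0, and every gene lies below 0 without aged replicate 2.

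Because the levels of these genes differed so much between libraries, ratios within a library were compared next. Adipoq, Plin1, Cidec and Lipe served as a core, and each of the other 6 genes was expressed as a log2 ratio of its CPM to the mean log2 CPM of the core. Within the core, each gene stayed within 0.985 log2 units over the 6 libraries when set against the other members, so these 4 genes moved nearly together. Pparg spanned 1.04 log2 units, which was the least of the 6, and Plin4 2.31. A ratio also moves with the core where the other gene stays level. The Plin4 ratio was lowest where the core was highest, at 2.95 in young replicate 2 and 2.86 in aged replicate 2. Lep spanned 2.40, Car3 3.09, Cfd 3.76 and Retn 3.85 log2 units.

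The Lep ratio was -4.17, -4.39 and -4.93 in young replicates 1, 2 and 3 and -5.82, -5.41 and -6.57 in aged replicates 1, 2 and 3. It was lower in 3 of 3 aged libraries than in every young library, a difference of -1.44 on the log2 scale (exact two-sided permutation test, p = 0.1, the smallest that 3 against 3 allow, and 0.6 after adjustment over 6 ratios). The difference did not pass correction, and it rests on 5 and 6 Lep counts in aged replicates 3 and 1. It stayed between -1.70 and -1.12 with any 1 library left out, and was -1.2 against Adipoq and Plin1 alone. On the log2(FPKM + 1) scale, where Lep lies near the pseudocount, the difference was -0.050.

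The other 5 ratios overlapped between ages. Plin4 differed by 0.057, Retn by 0.17, Cfd by -0.0097, Pparg by 0.16 and Car3 by -0.19 on the log2 scale, with exact permutation p between 0.6 and 1.0. Without young replicate 1, the Retn difference was 1.04, the Cfd difference 0.611 and the Plin4 difference -0.027. The Car3 ratio was 2.21, 2.50 and 2.54 in young libraries, and 3.30, 0.211 and 3.16 in aged replicates 1, 2 and 3. Aged replicate 2 thus had little Car3 for its core adipocyte RNA, and the Car3 difference was 0.81 without it. Its Cfd ratio of -1.16 was also the lowest of the 6 libraries, where the others ranged from 0.188 to 2.60, and the Cfd difference was 1.23 without it.

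**Figure D3:**
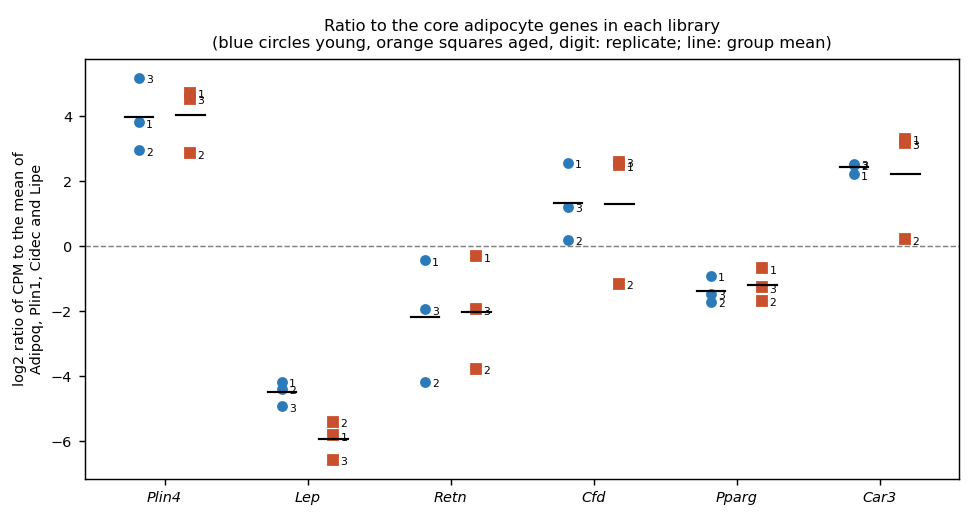
Log2 ratio of CPM of 6 adipocyte genes to the mean of Adipoq, Plin1, Cidec and Lipe in each library, with young as blue circles, aged as orange squares, digits for replicates and lines for group means. The Lep points of the ages do not overlap, while those of the other 5 genes do.

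Many, but not all, genes of related pathways were highest in aged replicate 2, as the core genes were. The share of all tested genes highest there was not computed. Of the 13 genes for lipid droplets and lipolysis, 9 were highest in aged replicate 2, and edgeR called 0 (12 higher, median log2 fold change 0.41). By contrast, G0s2 (18.0 CPM) and Bscl2 (65.0 CPM) were highest in aged replicate 1, and Plin3 (78.3 CPM) in young replicate 1. Pnpla2, the lipase that takes the first fatty acid from triglyceride, was at 138, 221 and 86.0 CPM in young and 91.7, 392 and 108 CPM in aged libraries. Of the 14 genes for fatty acid uptake and triglyceride synthesis, 12 were highest in aged replicate 2 and 0 were called by edgeR (median log2 fold change 0.51). Lpl, the lipase that frees fatty acids from lipoproteins, was at 146, 384 and 75.9 CPM in young and 128, 505 and 170 CPM in aged libraries. DESeq2 gave an adjusted p to 12 and 13 genes of these lists and called 0.

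Fatty acid synthesis genes also did not all follow the adipocyte genes. Fasn, the fatty acid synthase, was at 603, 215 and 146 CPM in young and 143, 3809 and 130 CPM in aged libraries. Set against the core, its log2 ratio was 4.94 in aged replicate 2, 4.27 in young replicate 1 and 1.51 in young replicate 2. Of the 10 genes of that list, 8 were highest in aged replicate 2, 8 had a positive log2 fold change and 0 were called by edgeR, with a median of 1.27. DESeq2 gave an adjusted p to 6 of the 10, not including Fasn, and called 0 of those 6. The pair of genes with the lowest p in the list were among those with a negative log2 fold change. Scd2, a stearoyl-CoA desaturase, was at 201.7, 66.8 and 74.5 CPM in young and 53.6, 29.3 and 62.9 CPM in aged libraries (log2 fold change -1.23, edgeR adjusted p = 0.449), with aged replicate 2 lowest. Srebf1, which encodes the lipogenic factor SREBP1, was at 71.8, 61.2 and 49.6 CPM in young and 37.5, 50.9 and 37.2 CPM in aged libraries (log2 fold change -0.54, edgeR adjusted p = 0.446).

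Brown adipocyte markers were also mixed. Ucp1 had its highest log2 ratio to the core in aged replicate 2, at 3.52, and 1.58 to 2.29 in the other 5 libraries. Of the 12 brown adipocyte markers, 11 were tested, 8 were highest in aged replicate 2, and edgeR called 0, as did DESeq2 among the 9 to which it gave an adjusted p. Those 8 were Ucp1, Cidea, Cox7a1, Cox8b, Elovl3, Otop1, Zic1 and Slc27a2, and did not include Prdm16 or Dio2. Prdm16, a regulator of brown fat identity with the lowest p of that list, was at 92.2, 94.6 and 99.7 CPM in young and 50.9, 77.8 and 70.0 CPM in aged libraries. Its groups did not overlap, as held for 16.5% of all tested genes (log2 fold change -0.53, edgeR adjusted p = 0.424). Dio2, the deiodinase that activates thyroid hormone, was at 48.0, 52.3 and 49.8 CPM in young and 109, 42.3 and 86.1 CPM in aged libraries, with aged replicate 2 lowest.

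**Figure D4:**
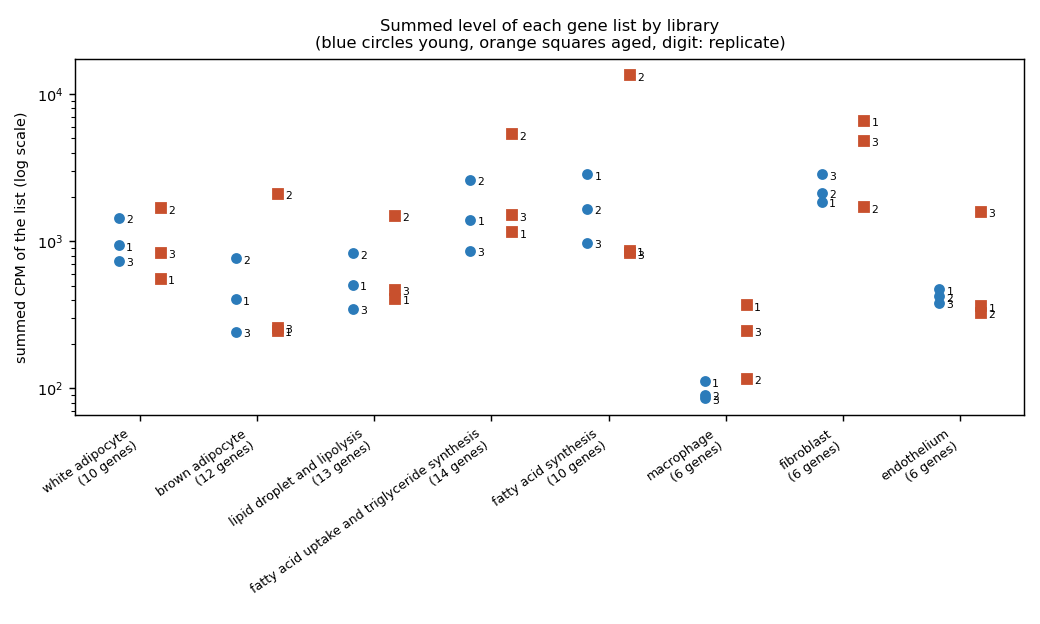
Summed CPM on a log scale of the 10 adipocyte genes (white adipocyte), 4 other lipid lists and 3 lists of other cell types in each library, with young as blue circles, aged as orange squares and digits for replicates. In the 5 lipid lists aged replicate 2 is the highest library, at 13460 CPM for fatty acid synthesis, while its fibroblast (1704 CPM) and endothelium (328 CPM) sums are the lowest. Plin4 is the largest part of the white adipocyte sum in every library.

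Of 10 adipogenic transcription factors, edgeR called 0 and DESeq2 called 2, Cebpd and Cebpb. DESeq2 called 2.0% of all genes to which it gave an adjusted p. Cebpd was at 14.01, 17.9 and 19.6 CPM in young and 70.9, 37.9 and 70.7 CPM in aged libraries (edgeR adjusted p = 0.259, DESeq2 adjusted p = 4.94e-06). Cebpb was at 5.49, 5.52 and 4.89 CPM in young and 16.0, 34.1 and 14.8 CPM in aged libraries (edgeR adjusted p = 0.306, DESeq2 adjusted p = 3.16e-05). The values of these early C/EBP factors did not overlap between ages, as held for 16.5% of all tested genes. The later factor Cebpa, at 15.4, 36.6 and 8.97 CPM in young and 11.6, 45.5 and 10.9 CPM in aged libraries, varied with the adipocyte genes. The most abundant factors Rxra, Ebf1 and Klf15 had log2 fold changes of -0.25, 0.077 and 0.44. The median of the 10 was 0.12, and 5 of them were highest in aged replicate 2.

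Of 14 other adipokines and secreted proteins, 13 were tested, edgeR called 0 and DESeq2 called 1, beside 2.0% of all genes to which it gave an adjusted p. The called gene, the lipocalin Lcn2, was low in every library, between 0.0575 and 0.350 CPM in young and between 1.09 and 2.23 CPM in aged libraries (edgeR adjusted p = 0.372, DESeq2 adjusted p = 0.00669). The median log2 fold change of the 13 was 0.57. The adipokine receptor list had 7 genes, of which 6 were tested and 0 called by either tool, with a median of 0.19. Cdh13, which binds adiponectin at the cell surface, was at 507, 357 and 387 CPM in young and 266, 317 and 350 CPM in aged libraries. Its groups did not overlap, as held for 16.5% of all tested genes, with a log2 fold change of -0.42 (edgeR adjusted p = 0.515). Adipor1, an adiponectin receptor, was nearly level, from 83.1 to 109 CPM over the 6 libraries.

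Among 9145 other genes averaging 10 CPM or more, the 8 whose centred log2 CPM lay closest to the centred mean of the adipocyte genes over the 6 libraries were Adora1, Fam13a, Fabp3, Adhfe1, Pnpla2, Cebpa, Tmem45b and 4931406C07Rik. Their root mean square difference from that mean ranged from 0.202 to 0.315 log2 units. Adora1, the adenosine receptor that restrains lipolysis, was at 11.4, 17.4 and 6.38 CPM in young and 5.96, 19.5 and 7.79 CPM in aged libraries. Fabp3, a fatty acid binding protein of muscle and brown fat, was at 34.9, 81.4 and 19.8 CPM in young and 19.9, 85.6 and 21.6 CPM in aged libraries. Among the adipocyte genes themselves, Pparg (0.258) and Adipoq (0.313) lay closest to the mean of the other 9, and Retn (1.2), Cfd (1.11) and Lep (1.08) farthest.

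Other cell types varied along different lines. The 6 macrophage markers summed to between 85.6 and 112 CPM in young and between 116 and 369 CPM in aged libraries, with 0 called by edgeR and 4 by DESeq2. The 6 fibroblast markers summed to between 1858 and 2856 CPM in young and between 1704 and 6577 CPM in aged libraries, with 0 called by edgeR and 2 by DESeq2. DESeq2 called 2.0% of all genes to which it gave an adjusted p. Aged replicate 2 had the highest summed CPM of the adipocyte genes (1677, beside 1438 in young replicate 2), although both libraries gave them 0.157% of counts. Plin4, the most abundant of these genes in every library, made up 901 and 586 CPM of these sums. Among aged libraries, aged replicate 2 had the lowest sums of both the macrophage and the fibroblast list. Endothelial markers (6 genes) ranged from 328 to 1587 CPM, blood markers (5 genes) from 391 to 878 CPM, mesothelial markers (4 genes) from 1.05 to 58.7 CPM and Schwann cell markers (4 genes) from 72.4 to 214 CPM over the 6 libraries, with 0 called by either tool. The part of these cell types in the adipocyte gene levels was not tested.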

How the data were processed

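Single-end RNA sequencing covered 3 libraries of young and 3 of aged aorta. The methods describe vessels taken from individual animals, but neither they nor the labels state whether each library holds a single mouse, so the p-values measure the spread between libraries, which may be technical. The authors deposited raw read counts per gene and FPKM, which scale counts by gene length and library. The submitters' processing notes name the mm10 build, whereas the aligner, counting tool and annotation are not given in the sources used here. Whether counting used strand is also not given. Reads shared with overlapping genes could therefore not be separated.

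Counts were filtered with filterByExpr (minimum count 10, minimum total 15), normalized by TMM and fitted with edgeR 4.0.16 (quasi-likelihood test, Benjamini-Hochberg adjustment, threshold 0.05) in R 4.3.3. Standard errors are the log2 fold change divided by the square root of F. The log2 CPM used a prior count of 1. Ratios were compared by exact permutation in scipy 1.17.1. DESeq2 1.42.0 and limma 3.58.1 on log2(FPKM + 1) or log2(FPKM + 0.1) were alternatives, beside RLE factors, other filters, a replicate block and leaving out libraries.

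The genes and lists were chosen with earlier results of these data known. Named are the 10 genes, the most abundant or lowest-p genes of each list, and the 8 genes closest in pattern. Coordinates are from GENCODE M21 (GRCm38, the same assembly as mm10) and promoters from RefSeq. Library totals of 31049632 to 45832185 counts set the precision, and intervals on counts cover counting error only.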

Additional observations from a re-analysis of the deposited data

How the results depend on the processing

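The count of 0 adipocyte genes called held under all 14 alternatives (9 genes without Lep where at least 10 counts were required in every library), and the count of 0 called over all genes became 307 with DESeq2 and lay between 0 and 110 with libraries left out, the latter without aged replicate 2. With 1 library left out, or with young replicate 1 and aged replicate 2 both left out (added after the data were seen), the log2 fold changes ranged from -1.50 to 0.65 for Adipoq, -2.12 to 1.36 for Plin1, -0.57 to 0.37 for Plin4, -1.19 to 1.37 for Cidec, -3.47 to 0.010 for Lep, -0.80 to 0.96 for Retn, -0.75 to 0.61 for Cfd, -0.96 to 0.73 for Pparg, -0.98 to 0.33 for Car3 and -1.30 to 1.39 for Lipe. With 1 library left out, the aged minus young differences of the log2 ratios to the core also varied. They ranged from -0.455 to 0.652 for Plin4, -0.83 to 1.05 for Retn and -0.66 to 1.23 for Cfd. The difference ranged from -0.10 to 0.395 for Pparg and from -0.73 to 0.81 for Car3.

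With limma on log2(FPKM + 1), signs turned for Plin1 (-0.38), Plin4 (-0.27), Cidec (-0.042), Pparg (-0.11) and Lipe (-0.044), and with a pseudocount of 0.1 they were -0.57, -0.27, -0.064, -0.16 and -0.11. These scales moved the median of all genes to -0.12 and -0.19. On log2(FPKM + 1), the aged minus young difference of the Plin4 ratio was -0.022. Against Adipoq and Plin1 alone, the difference was 0.23 for the Cfd ratio and 0.048 for the Car3 ratio. The cause was not tested.

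With the replicate number as a replicate block, edgeR called 0 genes and 0 of the 10, and Plin1 (-0.34), Plin4 (-0.056) and Retn (0.060) changed sign. Lep moved from -0.81 to -1.54 (edgeR adjusted p = 0.495), the lowest adjusted p of the 10. Standard errors were smaller for every gene but Cfd, for example 0.535 against 1.09 for Plin1. Over all tested genes, deviations of same-numbered libraries correlated at 0.0747, 0.112 and 0.088. Among the 10 genes, replicate 2 was highest in both groups for Adipoq, Plin1, Plin4, Cidec, Lep, Pparg and Lipe. The labels tie no number to a litter or day, and the numbers were not taken as pairs. Lep, with 5 and 6 counts in a pair of aged libraries, is limited by depth, while the other genes had at least 134 counts in every library.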
